A study of Homo sapiens with 12 samples.

Results

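Interferon-stimulated genes are genes whose transcription rises when a cell senses interferon. A set of 36 of them was followed here across untreated lymphoma cell lines. Each gene was represented by the array probe set with a single gene symbol that had the highest mean signal over all arrays. Under that rule 35 of the 36 genes were measured, out of 11963 genes in all, and the expression of STAT2 was not analysed here. The 35 genes were read by 53 probe sets in total, and 12 of them had more than 1.

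The study profiled 6 established human lymphoma cell lines on 12 Affymetrix HG-U133A arrays, 2 arrays per line, to compare Hodgkin lines with B-cell lines. The Hodgkin lines were KM-H2, L1236 and L428, which derive from classical Hodgkin lymphoma, and the B-cell lines were Namalwa, SU-DHL4 and SU-DHL6. All 6 were grown in RPMI 1640 with fetal bovine serum and were untreated per the labels, which name no added interferon. The submitters had published the 3 Hodgkin lines and Namalwa before, and added SU-DHL4 and SU-DHL6. Type and dataset are thus partly confounded, and within the B-cell lines dataset and line cannot be told apart for Namalwa against the SU-DHL lines. The line was taken as the replicate of a type, and 3 lines per type limit the precision of any statement on a type.

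Interferons bind receptors at the cell surface, and the receptors signal through JAK kinases to STAT factors. Type I and type III interferons act through a complex holding IRF9 that binds the interferon-stimulated response element, whereas interferon gamma acts through the gamma-activated site. The induced proteins degrade foreign RNA, block virus entry and budding, attach the ubiquitin-like protein ISG15 to other proteins, sense foreign nucleic acid, and restrain the pathway itself. A subset is also transcribed at a basal level without added interferon.

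Values are log2 signal after robust multi-array average (RMA) normalization, so a difference of 1 is a 2-fold change, and levels were not compared between probe sets. The lower quartile of an array lay between 5.64 and 5.75, and signals near it could not be told from background because no detection calls were used. Duplicate arrays correlated at r = 0.981 in SU-DHL6 and up to 0.995 in the other lines. The SU-DHL6 pair stood apart, with 465 probe sets more than 2-fold apart on its 2 arrays, where each of the other pairs had 17 to 122. SU-DHL6 replicate 2 had a GAPDH 3′ minus 5′ signal of 0.47 against -0.09 to 0.16 on the other arrays. Among the interferon-stimulated genes, duplicates differed more than 2-fold for IFITM3 and TRIM22 in KM-H2 and for MX2 in SU-DHL6.

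Promoter sequence around the start site was read for 28 of the 36 genes, STAT2 among them, from RefSeq on build GRCh38.p14, covering 250 bases upstream and 50 downstream. The letters GAAANNGAAA, a form of the interferon-stimulated response element, were searched on both strands. They were found in 20 of the 28 genes (71.4%) and in 1195 of 27305 genes with a promoter entry (4.38%). The letters TTCNNNGAA, a form of the gamma-activated site, were found in 8 of the 28 (28.6%) and in 9.38% of all genes, and the searches overlapped at 7 positions in these promoters. A match describes letters in the window and not binding. The windows of 80 bases printed here belong to genes described in full below, of which BST2 was not called in the main comparisons between types or lines. Capitals mark the GAAANNGAAA copies, or their reverse complement, that lie wholly inside the window. A second copy in IFITM1, at -6 from the start site, runs past the end of its window and is left in lower case.
IFITM1, chr11:313960-314039, plus strand: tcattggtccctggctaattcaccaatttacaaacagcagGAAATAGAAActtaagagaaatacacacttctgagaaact
BST2, chr19:17405710-17405789, minus strand: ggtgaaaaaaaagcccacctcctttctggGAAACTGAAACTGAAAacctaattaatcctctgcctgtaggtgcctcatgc
MX1, chr21:41431819-41431898, plus strand: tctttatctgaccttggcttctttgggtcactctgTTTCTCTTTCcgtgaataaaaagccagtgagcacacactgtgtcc
ISG15, chr1:1013355-1013434, plus strand: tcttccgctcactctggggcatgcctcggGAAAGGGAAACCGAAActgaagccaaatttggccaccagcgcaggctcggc
IFI44, chr1:78649709-78649788, plus strand: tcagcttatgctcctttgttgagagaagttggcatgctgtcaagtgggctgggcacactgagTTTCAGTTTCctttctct
IFI44L, chr1:78620340-78620419, plus strand: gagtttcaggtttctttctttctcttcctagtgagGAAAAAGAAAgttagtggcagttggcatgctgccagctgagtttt
HERC5, chr4:88457010-88457089, plus strand: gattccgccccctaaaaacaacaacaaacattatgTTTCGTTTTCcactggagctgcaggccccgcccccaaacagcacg
The copies in ISG15 and BST2 overlap each other and appear as a single longer run of capitals. The marked copy is on the opposite strand in the printed windows of MX1, IFI44 and HERC5, and on the strand of the gene in those of IFITM1 and IFI44L. HERC5, with 3 copies, and IFI44L, with 2, hold further copies outside the printed window.

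The line with the highest signal differed from gene to gene. L428 had the highest mean signal for 11 of the 35 genes (all genes, 15.0%), Namalwa for 8 (12.6%), L1236 for 6 (16.9%), SU-DHL6 for 5 (23.8%), KM-H2 for 4 (18.8%) and SU-DHL4 for 1 (12.8%). SU-DHL4 had the lowest mean for 17 of the 35 genes, or 48.6%, against 25.6% of all genes. SU-DHL6 had the lowest mean for 7 of them, or 20%, against 9.57% of all genes. These counts take no account of the margin. In SU-DHL4 the margin was far below the spread of duplicates for genes that include IFITM1, MX2, OAS3, IFI44, IFI6, IFIT1, IFIT3 and RSAD2. IFIT3, for example, had means of 7.592 in SU-DHL4 and 7.596 in SU-DHL6, and its SU-DHL4 arrays read 7.70 and 7.48. The mean signal differed at least 2-fold between the highest and the lowest line for 21 of the 35 genes (60%), against 31.5% of all genes. The median range over the lines was 1.49 for these genes and 0.60 for all genes, on the log2 scale. IFI16 spanned 28.4-fold, TRIM22 22.8-fold, IFITM1 13.2-fold and MX1 8.40-fold from the lowest to the highest line mean. IFIT1, GBP1 and GBP2 lay at or below the array's lower quartile on all 12 arrays, and HERC6 and XAF1 on 10.

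**Figure D1:**
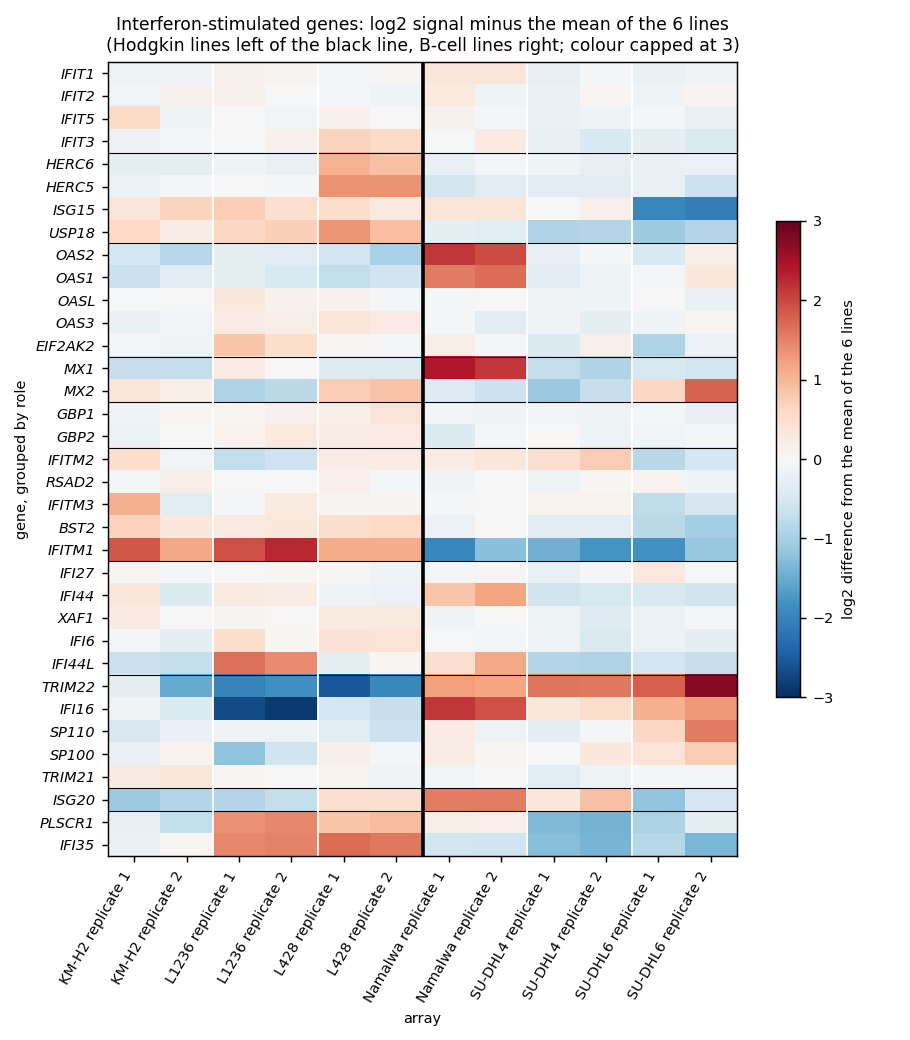
Log2 signal of the 35 interferon-stimulated genes on each of the 12 arrays, as the difference from the mean of the 6 lines, with genes grouped by role. Red blocks for MX1, OAS1 and OAS2 lie in Namalwa, for IFITM1 in the 3 Hodgkin lines and for TRIM22 in the 3 B-cell lines.

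Hodgkin lines were compared with B-cell lines on the 6 line means, 3 against 3. IFITM1, which encodes a small membrane protein that hinders virus entry, was higher in the Hodgkin lines, and TRIM22, which encodes a ubiquitin ligase of the tripartite-motif family, was lower. These were the calls among the 35 genes, 1 in each direction, with limma's adjusted p under 0.05. Over all genes 0.468% were called higher and 0.869% lower, and 7 of the 35 genes had an unadjusted p under 0.05 against 1837 of the 11963. The mean was higher in the Hodgkin lines for 24 of the 35 genes and lower for 11, and the median difference was 0.22 against 0.00 for all genes.

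IFITM1 (probe set 214022_s_at) measured 10.11 and 9.41 in KM-H2, 10.18 and 10.51 in L1236, 9.36 and 9.36 in L428, 6.28 and 6.98 in Namalwa, 6.80 and 6.44 in SU-DHL4 and 6.42 and 7.10 in SU-DHL6. Every Hodgkin array lay above every B-cell array. Signal is averaged over a culture, so fewer expressing cells and less RNA per cell cannot be told apart. The type means were 9.82 ± 0.50 and 6.67 ± 0.08 (SD, n = 3 lines each), a difference of 3.15 ± 0.26 (SE) or 8.88-fold, with an adjusted p of 0.0156 from limma. A further probe set, annotated to both IFITM1 and IFITM2, averaged 10.4 in the Hodgkin lines and 7.76 in the B-cell lines, a difference of 2.61 with an adjusted p of 0.0208 from limma. The neighbouring family members were not called. The difference was -0.15 for IFITM2 (95% interval -1.24 to 0.94, adjusted p = 0.908) and 0.37 for IFITM3 (-0.18 to 0.92, adjusted p = 0.515), and their probe sets may also read near-identical family members. IFITM1 was no longer called without Namalwa (adjusted p = 0.0544), without SU-DHL4 (0.0717), without SU-DHL6 (0.0608) or with dataset as a block (0.130). Its difference was 3.19 within the published dataset, against Namalwa alone.

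TRIM22 (probe set 213293_s_at) measured 7.34 and 6.11 in KM-H2, 5.60 and 5.77 in L1236, 5.06 and 5.68 in L428, 8.85 and 8.81 in Namalwa, 9.21 and 9.19 in SU-DHL4 and 9.41 and 10.36 in SU-DHL6. The B-cell arrays were all above the Hodgkin arrays, and KM-H2 replicate 1 was the highest of the latter. The type means were 5.93 ± 0.71 and 9.31 ± 0.54 (SD, n = 3 lines each), a difference of -3.38 ± 0.45 (SE), 10.4-fold lower in the Hodgkin lines, with an adjusted p of 0.0472 from limma. On 3 Hodgkin arrays the signal was at or below the lower quartile, so the fold may be understated. Leaving out any line other than KM-H2 ended the call (adjusted p from 0.0932 to 0.170), as did leaving out KM-H2 replicate 2 (0.0975), L428 replicate 2 (0.0530) or SU-DHL6 replicate 1 (0.0640), or fitting dataset as a block (0.282). The difference stayed between -3.78 and -2.90 over these and the other alternatives. TRIM21, a relative that binds antibody-coated virus, differed by 0.23 with an adjusted p of 0.445.

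USP18, IFI35, BST2 and IFI16 had the next smallest p-values and did not pass the adjusted threshold. USP18 removes ISG15 from proteins and dampens signalling from the type I receptor. It measured 7.44 and 7.06 in KM-H2, 7.46 and 7.55 in L1236, 8.17 and 7.73 in L428, 6.58 and 6.49 in Namalwa, 5.93 and 5.95 in SU-DHL4 and 5.78 and 5.96 in SU-DHL6. All Hodgkin arrays were above all B-cell arrays, and the difference was 1.45 ± 0.26 (SE), with a 95% interval of 0.80 to 2.11 and an adjusted p of 0.0859.

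IFI35 encodes a leucine-zipper protein that pairs with NMI. It measured 7.47 and 7.72 in KM-H2, 9.12 and 9.16 in L1236, 9.34 and 9.25 in L428, 7.10 and 7.08 in Namalwa, 6.39 and 6.28 in SU-DHL4 and 6.81 and 6.29 in SU-DHL6. KM-H2 lay closest to the B-cell lines, which it still exceeded, and L1236 and L428 were far above them. The difference of 2.02 ± 0.51 (SE) had an adjusted p of 0.176, and of 0.0413 without KM-H2. BST2, or tetherin, holds budding virus at the cell surface. It measured 10.02 and 9.64 in KM-H2, 9.62 and 9.66 in L1236, 9.87 and 9.93 in L428, 9.16 and 9.32 in Namalwa, 9.01 and 8.99 in SU-DHL4 and 8.52 and 8.31 in SU-DHL6. The groups did not overlap, and the difference of 0.91 ± 0.23 (SE) had an adjusted p of 0.176.

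IFI16, a nuclear sensor of DNA, measured 9.18 and 8.88 in KM-H2, 6.61 and 6.42 in L1236, 8.77 and 8.62 in L428, 11.45 and 11.24 in Namalwa, 9.61 and 9.83 in SU-DHL4 and 10.37 and 10.60 in SU-DHL6. L1236 was the lowest line and Namalwa the highest, and no Hodgkin array reached a B-cell array. The difference of -2.44 ± 0.80 (SE) had an adjusted p of 0.267. The other 2 probe sets of IFI16 gave differences of -2.41 and -2.46.

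**Figure D2:**
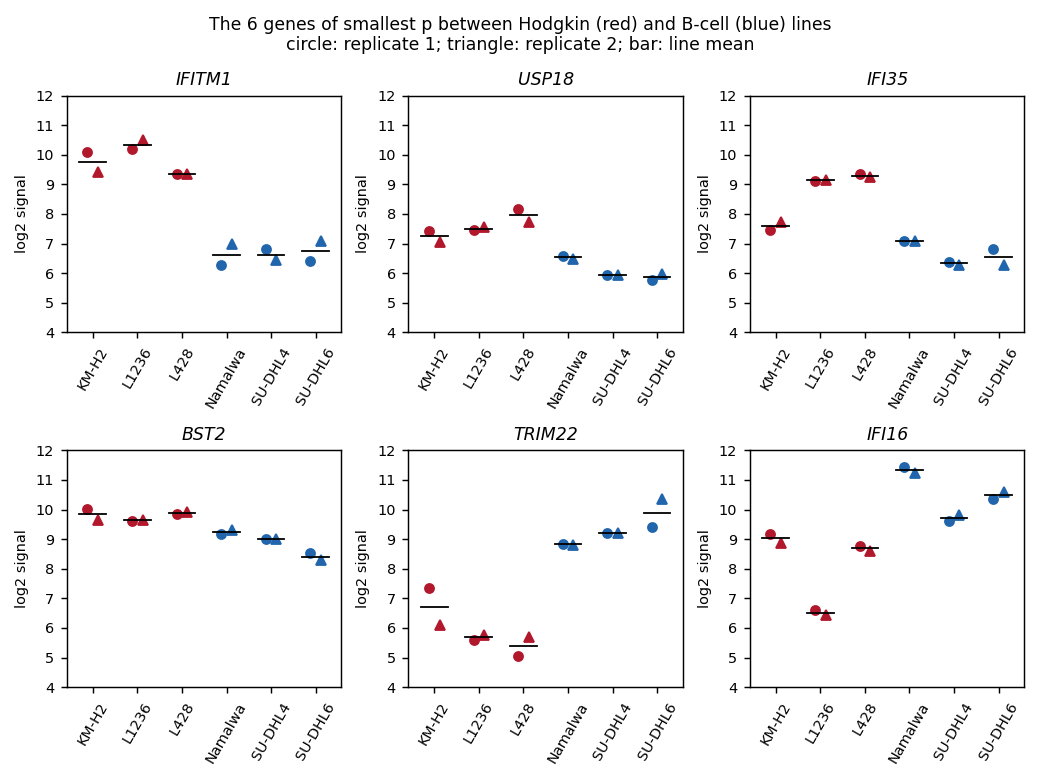
Log2 signal on each array for the 6 genes of smallest p between types, with a circle for replicate 1, a triangle for replicate 2, a bar for the line mean, Hodgkin lines in red and B-cell lines in blue. IFITM1, USP18, IFI35 and BST2 are higher on every Hodgkin array, and TRIM22 and IFI16 are higher on every B-cell array.

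The 3 Hodgkin line means all lay above the 3 B-cell line means for 10 of the 35 genes, OASL, IFI35, IFITM1, BST2, RSAD2, HERC5, TRIM21, XAF1, GBP1 and USP18. That is 28.6% of them, and the same order held for 11.1% of all genes. The Hodgkin means all lay below for 5 genes, OAS1, OAS2, TRIM22, SP100 and IFI16, or 14.3% against 11.9% of all genes. Several of these differences were small. OASL differed by 0.16, RSAD2 by 0.09, TRIM21 by 0.23, GBP1 by 0.22 and XAF1 by 0.30 on the log2 scale, between 1.07-fold for RSAD2 and 1.23-fold for XAF1, and GBP1 and XAF1 were dim. The order of line means was read from the probe set that represented each gene. The types overlapped in the second probe set of OASL, with means of 7.15 in KM-H2 and 7.38 in SU-DHL6. They also overlapped in a dimmer probe set of SP100, with 7.19 in KM-H2 and 6.88 in SU-DHL4. The remaining probe sets of SP100 were divided. All probe sets of GBP1, OAS1, OAS2 and IFI16 kept the order. Of the 10 genes above, 8 had a promoter entry and 6 of these held the GAAANNGAAA letters, against 20 of the 28 genes of the set with an entry (71.4%). Of the 5 below, 3 had an entry, OAS1, SP100 and IFI16, and 0 held them. These counts are too small to compare, and a link between the letters and direction was not tested.

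**Figure D3:**
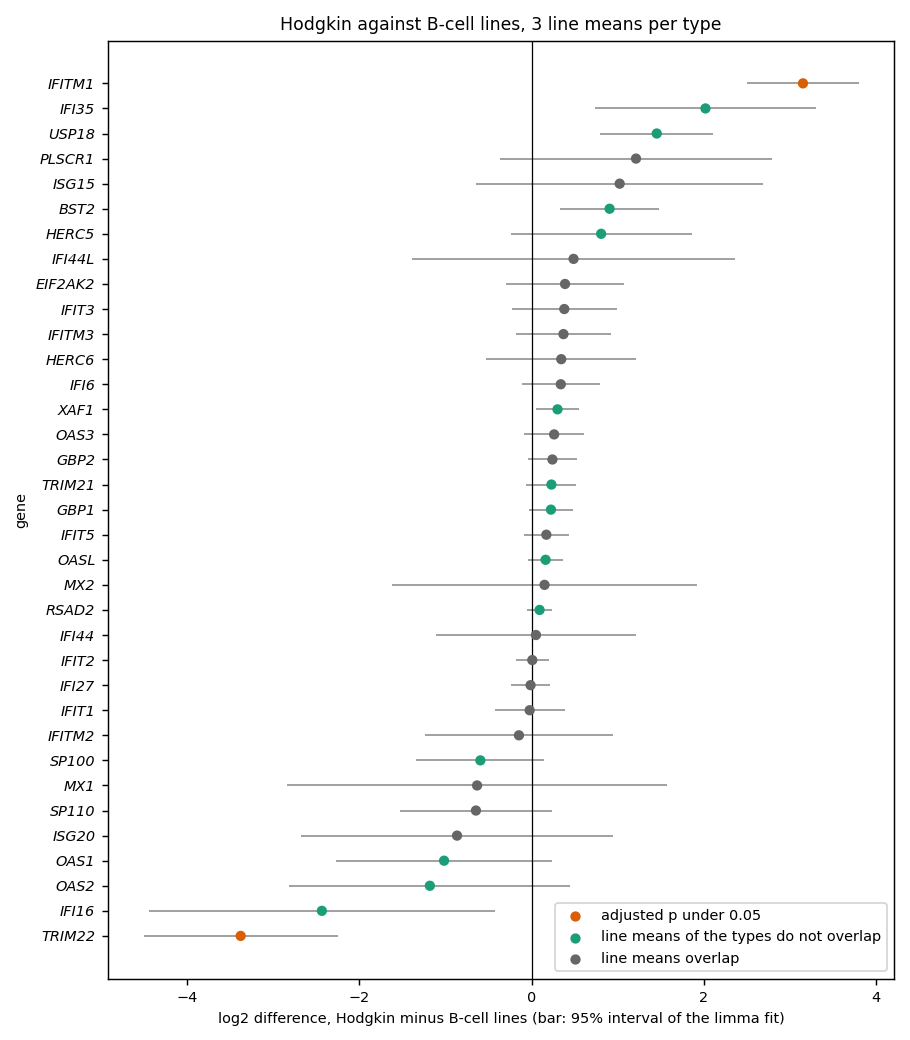
Log2 difference between the means of the 3 Hodgkin and the 3 B-cell lines for each gene, with the 95% interval of the limma fit as a bar. Orange marks IFITM1 and TRIM22, whose adjusted p was under 0.05, and green marks genes whose line means did not overlap between types.

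The authors' deposited table, whose p-values match limma run over the 12 arrays as independent values within 0.00247 on the log10 scale, called 5 of the genes higher and 2 lower. IFITM1, USP18, IFI35, BST2 and XAF1 were higher in the authors' deposited table, and TRIM22 and IFI16 were lower. That table called 6.02% of all genes higher and 8.69% lower.

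Lines were then compared within their type, each against the mean of the remaining 2. Genes were called where the difference reached 1 on the log2 scale at an adjusted p under 0.05. The p-values rest on how far duplicate arrays differ, possibly for technical reasons alone, and the 3 comparisons within a type share their lines, so a gene high in 1 line lowers the other lines' differences. The largest share of calls was in Namalwa, where 9 of the 35 genes were higher (25.7%, against 2.01% of all genes) and 0 were lower (1.81% of all genes). By adjusted p alone, with no minimum difference, the higher and lower genes numbered 3 and 11 in KM-H2 (14.5% and 13.7% of all genes), 5 and 6 in L1236 (11.7% and 13.7%), and 8 and 1 in L428 (13% and 12.1%). They numbered 14 and 0 in Namalwa (8.53% and 8.52%), 2 and 9 in SU-DHL4 (8.01% and 8.3%), and 2 and 9 in SU-DHL6 (10.2% and 9.33%).

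**Figure D4:**
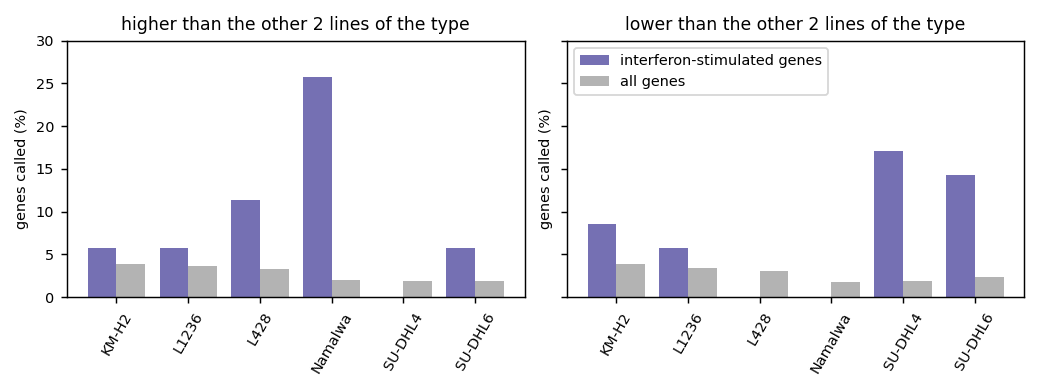
Percentage of the 35 interferon-stimulated genes and of all 11963 genes called higher (left) or lower (right) in each line than in the other 2 lines of its type. The tallest bar is Namalwa on the left at 25.7%, and on the right SU-DHL4 reached 17.1% and SU-DHL6 14.3%.

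The antiviral GTPase MX1 (202086_at), which traps viral nucleocapsids, measured 6.10 and 6.08 in KM-H2, 7.04 and 6.80 in L1236, 6.40 and 6.40 in L428, 9.19 and 8.92 in Namalwa, 6.08 and 5.89 in SU-DHL4 and 6.30 and 6.25 in SU-DHL6. Namalwa was far above the other 5 lines, which lay between 5.89 and 7.04. Its difference from the SU-DHL lines was 2.93 ± 0.10 (SE), 7.60-fold, with an adjusted p of 2.2e-07 from limma. The RNA-sensing synthetases OAS1 and OAS2, whose product activates RNase L, had the same highest line. OAS1 measured 6.40 and 6.76 in KM-H2, 6.79 and 6.62 in L1236, 6.32 and 6.47 in L428, 8.63 and 8.74 in Namalwa, 6.74 and 6.94 in SU-DHL4 and 7.02 and 7.40 in SU-DHL6. OAS2 measured 6.44 and 6.12 in KM-H2, 6.66 and 6.64 in L1236, 6.41 and 5.99 in L428, 9.12 and 8.92 in Namalwa, 6.72 and 6.90 in SU-DHL4 and 6.50 and 7.17 in SU-DHL6. Namalwa stood above all other lines for both, with differences of 1.66 and 2.19 from the SU-DHL lines (3.17-fold and 4.57-fold, adjusted p = 4.1e-05 and 5.2e-05). The second probe sets of both genes were not called in Namalwa. That of OAS1 differed by 0.97 (adjusted p = 8.2e-04 from limma), just below the calling size, and that of OAS2 by 0.34 (adjusted p = 0.0152). OAS3, which lies between them on chromosome 12, ranged from 6.27 to 6.76 over the line means and was highest in L428, and OASL ranged from 7.71 to 8.04.

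The other Namalwa calls were ISG20, IFI44L, IFI44, ISG15, IFI16 and PLSCR1. ISG20, an exonuclease that degrades RNA, measured 7.15 and 7.36 in KM-H2, 7.36 and 7.51 in L1236, 8.73 and 8.68 in L428, 9.77 and 9.77 in Namalwa, 8.55 and 9.12 in SU-DHL4 and 7.05 and 7.73 in SU-DHL6. Namalwa was the highest line and KM-H2 the lowest, and Namalwa exceeded the SU-DHL lines by 1.66 (adjusted p = 3.6e-04). IFI44L measured 5.67 and 5.61 in KM-H2, 7.99 and 7.74 in L1236, 6.05 and 6.39 in L428, 6.83 and 7.46 in Namalwa, 5.45 and 5.41 in SU-DHL4 and 5.75 and 5.64 in SU-DHL6. L1236 was above Namalwa, and the other lines lay between 5.41 and 6.39. IFI44, its neighbour on chromosome 1, measured 6.09 and 5.34 in KM-H2, 6.02 and 5.97 in L1236, 5.62 and 5.56 in L428, 6.57 and 6.92 in Namalwa, 5.13 and 5.26 in SU-DHL4 and 5.27 and 5.14 in SU-DHL6. Namalwa was highest there, and 7 of the 12 arrays were at or below the lower quartile. Namalwa exceeded the mean of the SU-DHL lines by 1.58 for IFI44L, 1.55 for IFI44, 1.37 for ISG15, 1.24 for IFI16 and 1.17 for PLSCR1. For ISG15 the means were 9.44 in Namalwa, 9.11 in SU-DHL4 and 7.02 in SU-DHL6, so most of that difference came from SU-DHL6. The second probe sets of IFI44 and PLSCR1 were not called, with differences of 0.17 (adjusted p = 0.290) and 0.45 (adjusted p = 0.354), whereas all 3 probe sets of IFI16 and both of ISG20 were called. With values under 6 raised to 6, the IFI44 difference was 0.75, below the calling size.

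Namalwa differs from the SU-DHL lines in dataset too, so a comparison with the 3 Hodgkin lines of its own dataset was added after the data were seen. There 6 of the 35 genes were higher in Namalwa (4.29% of all genes) and 3 were lower (4.06% of all genes). Of the 9 genes called against the SU-DHL lines, 5 were also higher than in the Hodgkin lines, namely MX1, OAS1, OAS2, ISG20 and IFI16. MX1 was 2.58 ± 0.10 (SE) higher, OAS2 2.64 ± 0.18 and OAS1 2.12 ± 0.13. ISG15 (-0.11), PLSCR1 (-0.43), IFI44L (0.57) and IFI44 (0.98) did not reach the calling size there. TRIM22 was the sixth gene higher, and IFI35, IFITM1 and USP18 were the 3 lower.

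In SU-DHL6, 2 genes were higher than in the other B-cell lines (1.93% of all genes) and 5 were lower (14.3%, against 2.35% of all genes). ISG15, the ubiquitin-like modifier, measured 9.39 and 9.69 in KM-H2, 9.77 and 9.54 in L1236, 9.56 and 9.31 in L428, 9.45 and 9.42 in Namalwa, 9.04 and 9.18 in SU-DHL4 and 7.07 and 6.96 in SU-DHL6. SU-DHL6 was the only line below 9, and its difference of -2.25 ± 0.12 (SE), 4.77-fold lower, had an adjusted p of 3.3e-06. ISG20 fell by 1.91, MX1 by 1.25, IFITM2 by 1.14 and OAS2 by 1.08 against the other 2 lines. IFITM2, which hinders virus entry from endosomes, had line means of 9.44 in KM-H2, 8.54 in L1236, 9.46 in L428, 9.50 in Namalwa, 9.84 in SU-DHL4 and 8.54 in SU-DHL6. Without SU-DHL6 replicate 1 its difference was -0.98, below the calling size, that of OAS2 was -0.75, and 3 genes were called lower. The second probe set of OAS2 was not called, with a difference of -0.23. Without SU-DHL6 replicate 2, 1 gene was called higher.

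MX2, an antiviral GTPase at the nuclear pore and the neighbour of MX1 on chromosome 21, had other highest lines than MX1. It measured 8.58 and 8.41 in KM-H2, 7.28 and 7.41 in L1236, 8.97 and 9.07 in L428, 7.83 and 7.56 in Namalwa, 7.10 and 7.53 in SU-DHL4 and 8.83 and 9.97 in SU-DHL6. SU-DHL6 and L428 were the highest lines, and L1236 and SU-DHL4 the lowest. In SU-DHL6 it was 1.90 ± 0.26 (SE) higher than in the other B-cell lines, 3.73-fold, with an adjusted p of 8.1e-04, and the difference was 1.33 without SU-DHL6 replicate 2. SP110, a nuclear body protein, measured 8.28 and 8.56 in KM-H2, 8.64 and 8.60 in L1236, 8.40 and 8.12 in L428, 8.99 and 8.61 in Namalwa, 8.48 and 8.72 in SU-DHL4 and 9.38 and 10.31 in SU-DHL6. Replicate 2 of SU-DHL6 was the highest array, and the difference of 1.14 (adjusted p = 0.0072) was 0.67 without it, below the calling size.

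In SU-DHL4, 0 genes were higher (1.89% of all genes) and 6 were lower (17.1%, against 1.87% of all genes). They were MX1 (-1.68), MX2 (-1.24), IFI16 (-1.20), PLSCR1 (-1.14), OAS2 (-1.11) and OAS1 (-1.11). For MX2 the means were 7.31 in SU-DHL4, 7.69 in Namalwa and 9.40 in SU-DHL6, so most of that difference came from SU-DHL6. PLSCR1, a phospholipid scramblase, measured 6.88 and 6.41 in KM-H2, 8.51 and 8.58 in L1236, 7.98 and 8.09 in L428, 7.34 and 7.28 in Namalwa, 5.81 and 5.73 in SU-DHL4 and 6.18 and 6.84 in SU-DHL6. SU-DHL4 was the lowest line and L1236 the highest. The SU-DHL4 and SU-DHL6 means were 5.98 and 6.27 for MX1, 6.84 and 7.21 for OAS1, and 6.81 and 6.84 for OAS2, and the comparison group of each held Namalwa. Without SU-DHL6 replicate 2 the MX2 and PLSCR1 differences were -0.95 and -0.97, below the calling size, and 4 genes were called. The MX2 call was also lost without SU-DHL4 replicate 1 (adjusted p = 0.0967). The second probe sets gave differences of -0.12 for OAS2, -0.25 for PLSCR1 and -0.78 for OAS1, none of them called. The dimmest probe set of IFI16 was not called either, with a difference of -0.74 (adjusted p = 0.0624). Its means were 9.28 in both SU-DHL4 and SU-DHL6. A further probe set of IFI16 was called at -1.08, but its difference was -0.91 without SU-DHL4 replicate 1, below the calling size. With the mean of all probe sets of a gene, 3 genes were called lower, and the differences of OAS2, PLSCR1 and OAS1 were -0.61, -0.69 and -0.94.

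Among the Hodgkin lines, KM-H2 had 2 genes higher (3.88% of all genes) and 3 lower (3.84% of all genes). PLSCR1 fell by 1.64, IFI35 by 1.62 and IFI44L by 1.41 in KM-H2 against L1236 and L428, with adjusted p-values of 8.8e-05, 1.5e-05 and 1.6e-04. The KM-H2 arrays of IFI44L were at or below the lower quartile. IFI16 was 1.43 higher. Its means were 9.03 in KM-H2, 8.69 in L428 and 6.52 in L1236, so most of that difference came from L1236. TRIM22 was 1.19 higher with an adjusted p of 0.0266, a difference that was 0.58 without KM-H2 replicate 1 (adjusted p = 0.316). The TRIM22 call was also lost without either L1236 array (0.0704 and 0.0544) and without L428 replicate 1 (0.0833).

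L1236 had 2 genes higher (3.70% of all genes) and 2 lower (3.39% of all genes). IFI44L was 1.94 ± 0.17 (SE) higher, 3.84-fold, with an adjusted p of 1.9e-05, and PLSCR1 was 1.21 higher. IFI16 fell by 2.34 ± 0.12 (SE), 5.08-fold, with an adjusted p of 7.6e-07, and all 3 of its probe sets were called. MX2 fell by 1.41.

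L428 had 4 genes higher (11.4%, against 3.33% of all genes) and 0 lower (3.03% of all genes). HERC5, the ligase that attaches ISG15, measured 6.08 and 6.18 in KM-H2, 6.25 and 6.20 in L1236, 7.61 and 7.60 in L428, 5.69 and 5.92 in Namalwa, 5.90 and 5.93 in SU-DHL4 and 6.03 and 5.61 in SU-DHL6. L428 was the only line above 7. HERC6, its neighbour on chromosome 4, measured 5.35 and 5.35 in KM-H2, 5.48 and 5.38 in L1236, 6.66 and 6.49 in L428, 5.40 and 5.56 in Namalwa, 5.49 and 5.37 in SU-DHL4 and 5.41 and 5.44 in SU-DHL6. Only the L428 arrays rose above the lower quartile. The differences were 1.43 ± 0.12 (SE) for HERC5 and 1.18 ± 0.09 for HERC6, with adjusted p-values of 2.1e-05 and 8.1e-06. HERC6 lay at or below the lower quartile in KM-H2 and L1236, and with values under 6 raised to 6 its difference was 0.57, below the calling size, and 2 genes were called in L428. ISG20 was 1.36 higher and MX2 1.10 higher (adjusted p = 0.0119 for MX2). For MX2 the means were 9.02 in L428, 8.50 in KM-H2 and 7.34 in L1236, so most of that difference came from L1236. The MX2 call was lost without either L428 array. Without KM-H2 replicate 2, 1 gene was called lower.

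**Figure D5:**
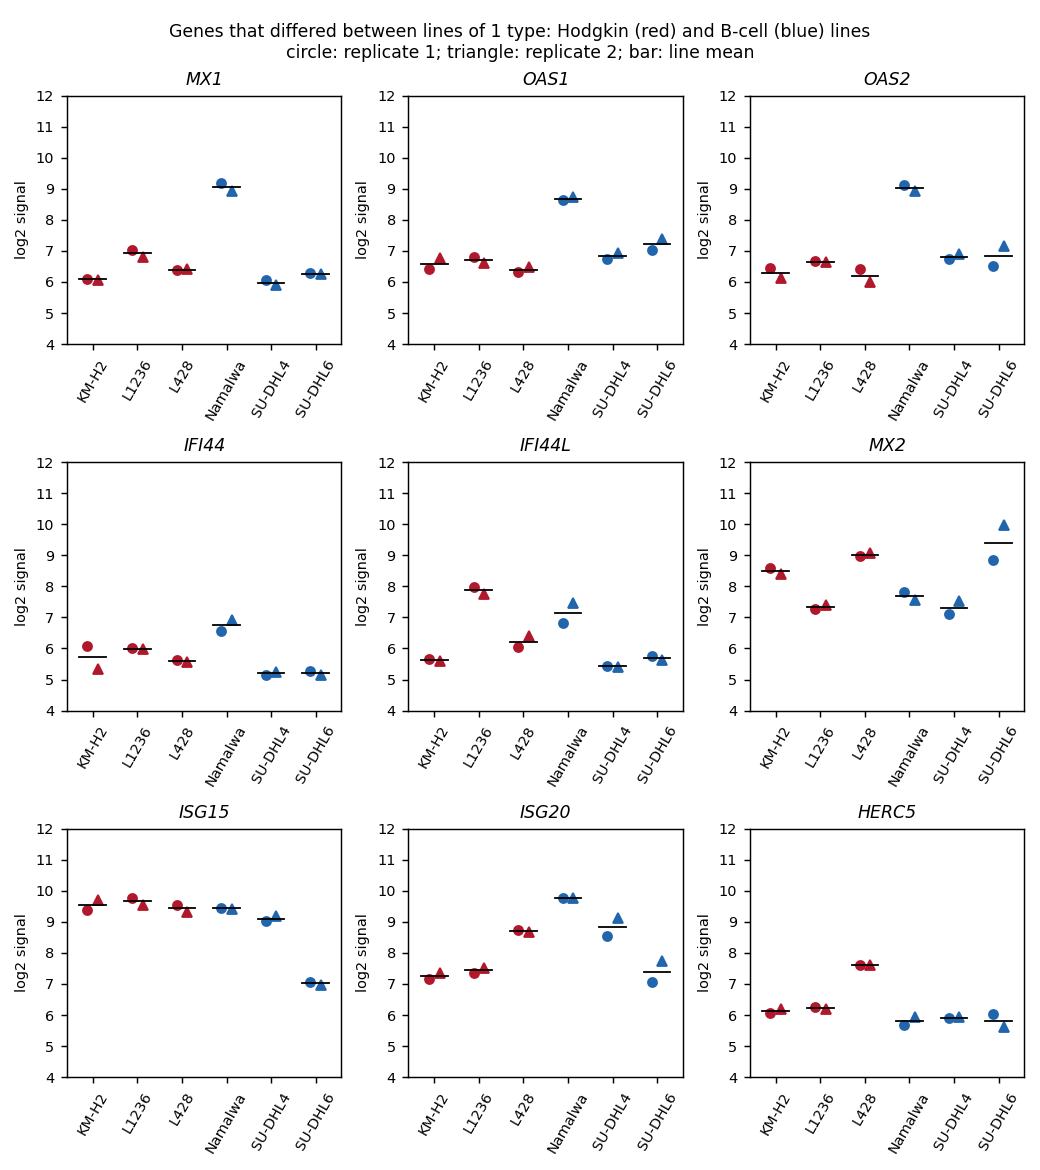
Log2 signal on each array for 9 genes that differed between lines of a type, with a circle for replicate 1, a triangle for replicate 2, a bar for the line mean, Hodgkin lines in red and B-cell lines in blue. Namalwa is highest for MX1, OAS1, OAS2, IFI44 and ISG20, L1236 for IFI44L, L428 for HERC5, and SU-DHL6 is lowest for ISG15.

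Several of the genes lie near each other in the genome. MX1 was highest in Namalwa and MX2 in SU-DHL6, and IFI44 was highest in Namalwa and IFI44L in L1236. IFITM1, IFITM2 and IFITM3 on chromosome 11 were highest in L1236, SU-DHL4 and KM-H2, where the IFITM3 arrays read 10.78 and 9.35. HERC5 and HERC6 were both highest in L428, as were GBP1 and GBP2, although the GBP probe sets were dim on all arrays. SP100 and SP110, with 2 genes between them on chromosome 2, were both highest in SU-DHL6.

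The remaining genes had no call between lines in the probe set that represented them. The IFIT family, whose proteins bind foreign RNA, had no call between types, or between lines at the calling size. Its line means were 7.33 to 7.49 for IFIT2, 7.59 to 8.57 for IFIT3, 6.39 to 6.79 for IFIT5 and 4.87 to 5.37 for IFIT1. By adjusted p alone, IFIT3 was lower in KM-H2 (-0.46) and higher in L428 (0.65) and Namalwa (0.48), and IFIT1 was higher in Namalwa (0.49). The mitochondrial proteins IFI27 (5.84 to 6.12) and IFI6 (6.49 to 7.17), the virus-budding inhibitor RSAD2 (5.86 to 6.0), XAF1 (5.20 to 5.75), GBP1 (4.51 to 4.94), GBP2 (4.84 to 5.31), IFITM3 (9.07 to 10.07), TRIM21 (7.47 to 8.03) and SP100 (6.95 to 8.43) had no call between lines. EIF2AK2, the kinase that senses RNA and halts translation, ranged from 8.08 in SU-DHL6 to 9.31 in L1236, and only its dimmer probe set was called, with a difference of -1.81 in SU-DHL6. That probe set read 5.34 and 7.49 on the 2 SU-DHL6 arrays, and without replicate 1 the difference was -0.73, below the calling size. A dimmer probe set of SP100 was called in L1236, with a difference of -1.61.

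The rest of the pathway was read from lists that shared no gene with the set. Of the receptors and signalling genes 15 of 17 were measured, and 0 passed the test between types. In the line comparisons 2 were higher and 3 lower in KM-H2, 1 and 1 in L1236, 3 and 1 in L428, 2 and 0 in Namalwa, 0 and 3 in SU-DHL4, and 2 and 0 in SU-DHL6. The JAK kinase JAK1 had means of 9.05 in Namalwa, 7.47 in SU-DHL4 and 7.92 in SU-DHL6. Against the other B-cell lines it was 1.36 higher in Namalwa and fell by 1.02 in SU-DHL4. The transcription factor IRF1 was 1.01 higher in Namalwa. IRF2 and IRF7 fell by 1.75 and 1.59 in SU-DHL4 and were 1.40 and 1.33 higher in SU-DHL6. IRF9, the DNA-binding part of the complex for type I and type III interferons, ranged from 7.51 in SU-DHL4 to 8.61 in Namalwa with no call. In L428 IFNGR1 was 1.52 higher and IFNGR2 fell by 1.06, both encoding chains of the interferon gamma receptor, and IRF5 and IRF8 were 1.80 and 2.49 higher. In KM-H2 IRF5 and IRF8 fell by 1.81 and 2.51 and JAK2 by 1.07, and IFNGR2 and JAK1 were 1.23 and 1.11 higher. In L1236 JAK2 was 1.59 higher and IFNGR1 fell by 1.35. IRF8, a factor of B and myeloid cells, had the largest difference between types, -2.75 with an adjusted p of 0.247.

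Interferon genes themselves gave no call. Of 18 such ligand genes 14 were measured, 0 were called in any comparison, 9 had a mean below the median lower quartile, and IFNB1 lay between 5.39 and 5.64. Of the nucleic acid sensors 14 of 18 were measured and 1 was called between types, AIM2, a DNA sensor related to IFI16, which differed by -2.62 in the Hodgkin lines with an adjusted p of 0.0314. The RNA sensor IFIH1 differed by 2.64 in the other direction, with means of 7.22 and 4.59 and an adjusted p of 0.0528. Between lines, TRAF3, an adaptor of the sensing pathway, was 1.73 higher in KM-H2 and fell by 1.15 in L428 and by 1.54 in SU-DHL6. The kinase TBK1 fell by 1.05 in KM-H2, as did IFIH1, and was 1.11 higher in L428, and the adaptor MAVS was 1.01 higher in L1236. Of the negative regulators 12 of 12 were measured and 0 were called between types. Between lines, KM-H2 had 0 of them higher and 3 lower, L1236 1 and 1, L428 2 and 0, Namalwa 2 and 0, SU-DHL4 0 and 2, and SU-DHL6 0 and 1. SOCS1, which inhibits JAK kinases, differed by 2.38 with an adjusted p of 0.0908, was 1.13 higher in Namalwa and fell by 1.35 in SU-DHL6. TNFAIP3, an inhibitor of NF-kappaB signalling, was 3.36 higher in L428 and 1.18 higher in Namalwa, and fell by 2.33 in KM-H2, 1.03 in L1236 and 1.40 in SU-DHL4. The phosphatase PTPN1 fell by 1.07 in KM-H2 and was 1.18 higher in L428, and the phosphatase PTPN6 fell by 1.11 in SU-DHL4. CISH fell by 1.58 in KM-H2 and was 1.01 higher in L1236.

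Of the ISG15 conjugation partners 2 of 3 were measured. UBE2L6, the enzyme that passes ISG15 to its ligases, had means of 9.26 in KM-H2, 10.2 in L1236, 9.86 in L428, 9.09 in Namalwa, 6.17 in SU-DHL4 and 8.01 in SU-DHL6. It was 2.01 higher in Namalwa and fell by 2.38 in SU-DHL4, where ISG15 itself was 9.11, whereas ISG15 was low in SU-DHL6. Of the other inducible genes 32 of 45 were measured and 0 were called between types. NMI, the partner of IFI35, had the largest difference, 3.48 with an adjusted p of 0.196. KM-H2 had TRIM14 higher and PARP12 lower, L1236 had CXCL10 higher (2.31) and TRIM14 lower, and L428 had CXCL10 (-3.20) and TAP1 lower. Namalwa had 5 of them higher, NMI, PARP12, PSMB8, PSMB9 and WARS1, and 0 lower. SU-DHL4 had 3 lower, NMI, PARP12 and PSMB10, and SU-DHL6 had 2 lower, PARP12 and TRIM14. Of 11 measured genes of unrelated tissues 0 were called in any comparison. Of these, 6 had a mean at or below the median lower quartile. The line means ranged at least 2-fold for 0 of them, so no call between lines was possible.

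The labelled types were checked against markers. CD79A, a chain of the B-cell receptor, lay between 11.7 and 12.4 in the B-cell lines and between 6.79 and 6.99 in the Hodgkin lines. MS4A1, CD79A and CD79B, 3 of 5 measured B-lineage markers, were called lower in the Hodgkin lines, and FUT4 and CCL5, 2 of 6 Hodgkin markers, were called higher. The markers of T and NK cells, of myeloid cells, of plasmacytoid dendritic cells, of stromal cells and of erythroid cells and platelets gave 0 calls between types among 7, 7, 4, 7 and 4 measured genes. Between lines, TCF4 of the dendritic list was 3.74 higher in Namalwa and fell by 4.18 in SU-DHL6 and by 1.32 in KM-H2, IL3RA of that list was 1.08 higher in L428, and GZMB and LILRA4 were not called. PECAM1 of the stromal list was 2.95 higher in L1236 and was called lower in KM-H2 and L428. The mean signal was at or below the median lower quartile for 1 of the 7 T and NK cell markers and 4 of the 7 myeloid markers. The line means ranged at least 2-fold for 1 of the T and NK cell markers and 0 of the myeloid markers. The part of these marker differences in those of the interferon-stimulated genes was not tested.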

How the data were processed

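The deposited values table holds log2 signal normalised by RMA in R 2.10.1, per the submitters' processing notes and the series' design text, for 12 HG-U133A arrays. Its RMA settings were not stated, and no detection calls were used. A second table deposited by the authors holds a p-value before and after Benjamini-Hochberg adjustment and a log2 difference, Hodgkin minus B-cell lines, for each probe set.

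Tests covered 22215 of 22283 probe sets, without the 68 control probe sets. Of those tested, 19065 had 1 symbol in the platform annotation, 1043 had several and 2107 had none. Symbols were checked by Entrez identifier against a RefSeq table of assembly GRCh38.p14, where 19053 matched and 0 changed. Types were compared with limma 3.58.1 in R 4.3.3 on 6 line means, two-sided. Lines were compared in a limma fit of 12 arrays with a coefficient per line. Benjamini-Hochberg adjustment ran over all tested probe sets, and all adjusted p-values in the text come from limma unless the authors' table is named. Both fits were tested on simulated data. The labels do not say if duplicate arrays had separate cultures, so p-values of the line comparisons measure only the spread between them.

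The genes and the pathway and marker lists were chosen with earlier results of these data known. Genes are described in full where they were called between types, among the 6 smallest p-values there, or among the 4 largest called differences of a line. From the pathway lists the text names the called genes, and for some lists the gene of largest difference between types. Alternatives tried were the array as unit, an intensity trend, a filter on dim probe sets, a floor of 6, the mean over a gene's probe sets, median centring, the dataset, the replicate number, the calling size, and leaving out each line or array.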

Additional observations from a re-analysis of the deposited data

How the results depend on the processing

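IFITM1 and TRIM22, the 2 genes called between types, kept their direction under all 28 alternatives each. Among genes called in a line, ISG15 and PLSCR1 in Namalwa changed sign, to -0.11 and -0.43, against the Hodgkin lines of its dataset. With all 12 arrays as values and line as a random block, 4 genes were higher and 2 lower between types, and the authors' deposited table gave 5 and 2. For the authors' deposited table the shares of all genes were 6.02% and 8.69%. The shares for the fits with line as a random block are not given here, so their counts were not read as a result about the set. With values under 6 raised to 6, with dataset as a block and with the published dataset only, 0 were higher and 0 were lower. IFITM1 had an adjusted p of 0.0525 with the floor and 0.241 in the published dataset only, and TRIM22 of 0.0943 and 0.389, and over all alternatives the adjusted p ran from 5.9e-06 to 0.241 for IFITM1 and from 1.0e-04 to 0.389 for TRIM22. Leaving out 1 line or array at a time gave 0 to 2 genes higher and 0 to 1 lower between types. In the line comparisons the same gave 1 to 2 higher and 3 to 3 lower in KM-H2, 2 to 2 and 2 to 3 in L1236, 3 to 4 and 0 to 1 in L428, 9 to 9 and 0 to 0 in Namalwa, 0 to 0 and 4 to 7 in SU-DHL4, and 1 to 3 and 3 to 5 in SU-DHL6. With the floor, 1 gene was higher in KM-H2 and 2 in L428, and with the mean of all probe sets of a gene 3 were lower in SU-DHL4. By adjusted p alone, 3 genes were higher and 11 lower in KM-H2, 5 and 6 in L1236, 8 and 1 in L428, 14 and 0 in Namalwa, 2 and 9 in SU-DHL4, and 2 and 9 in SU-DHL6. Against the Hodgkin lines of its dataset, an alternative added after the data were seen, Namalwa had 6 genes higher and 3 lower. The filter on dim probe sets kept 30 of the 35 genes. Replicate numbers were not treated as pairing the arrays in the main fits. The correlation of same-numbered deviations was over 0.1 in 4 of 15 pairs of lines (-0.44 to 0.30), which cannot exclude a pairing among some lines. The replicate block with line as a random block gave 4 higher and 2 lower between types. The number of arrays limits all values, and differences that reach the lower quartile understate the fold.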
